A study of Mus musculus with 16 samples.

Results

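The mesenchyme of a salivary gland is the connective tissue that surrounds the branching epithelium. The results describe the difference between parotid and submandibular mesenchyme over all expressed genes. The 8 libraries were chosen as the columns that the raw count table names for these tissues, 4 for each gland, out of 16 libraries in all. All tissue came from ICR mice of wild-type genotype at embryonic day 13 (E13), with no treatment named. The labels give neither the number of embryos behind a library nor the way the layers were separated. They describe the 4 samples of a group as biologically independent. The p-values measure the spread between such samples within all 4 groups of the 16 libraries, epithelium included. The design text of the series also speaks of culture, which the labels of these libraries do not mention.

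In embryonic salivary glands the mesenchyme sends growth factors to the epithelium, chiefly of the FGF, WNT, BMP and EGF families, and it lays down part of the matrix against which buds branch. It comes largely from cranial neural crest, whose position along the face is marked by homeobox, T-box and other transcription factors. Vessels, nerves, macrophages and muscle precursors lie within or beside it. The parotid is a mainly serous gland of the cheek and the submandibular gland a mixed gland of the floor of the mouth.

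Defining markers matched the labelled layer. The summed level of 20 mesenchyme markers, such as Pdgfra, Twist1 and Col1a1, was 27210 to 40000 CPM (counts scaled by library size) in the parotid libraries and 16500 to 18800 CPM in the submandibular ones. The summed level of 20 epithelial markers was 147 to 216 CPM and 62.8 to 87.8 CPM, which is 4.38% and 1.22% of the mean in the epithelium of the same gland. Most of the parotid epithelial sum was Sox9, which is no epithelium-only gene. The epithelial adhesion gene Epcam averaged 11.8 CPM in parotid, against 35.3 CPM in submandibular mesenchyme, and E-cadherin (Cdh1) was at 5.26, 0.767, 0.237 and 0 CPM in parotid, against 0.549 to 1.34 CPM in submandibular libraries. The part of remaining epithelium in the results was not tested.

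Gene counts summed to 19080629 to 25846015 in a parotid and 16912258 to 18583164 in a submandibular library. The first principal component held 62.8% of the variance and parted the glands. The second held 9.02% and set parotid replicate 4, at -58.78, apart from the other parotid libraries at 3.277 to 37.35. Xist, expressed from an inactive X chromosome, and the Y-linked Ddx3y were both present in parotid replicates 2 and 3, at 79.8 and 58.8 CPM for Xist and 51 and 123 CPM for Ddx3y. Each of the other 6 libraries held mainly Xist or mainly Ddx3y.

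A large share of the mesenchymal transcriptome differed between the glands. Of 18191 genes tested, 6282 (34.5%) passed an adjusted p of 0.05 and are counted as called. Of these, 3785 (20.8% of those tested) were higher in parotid and 2497 (13.7%) were lower. At least 2-fold changes were called for 1622 genes (8.92%) higher and 1178 genes (6.48%) lower in parotid. At least 16-fold changes were called for 165 (0.907%) and 101 genes (0.555%). The libraries of the glands did not overlap for 6695 genes (36.8%). The median log2 fold change of all tested genes was 0.04, and all log2 fold changes given here are parotid minus submandibular.

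The direction of the calls depended on how libraries were scaled. TMM scaling, which assumes that most genes do not change, gave 60.3% of calls as higher in parotid. Upper-quartile scaling gave 46.2%, with a median log2 fold change of -0.07, and library totals alone gave 37.4%, with a median of -0.14. With only the 8 mesenchyme libraries in the fit, 6707 of 16420 genes (40.8%) were called, 51.1% of them higher in parotid. Changes that are small on the log2 scale are therefore relative to the scaling. In bulk tissue, fewer cells of a type and less RNA per cell cannot be told apart.

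**Figure D1:**
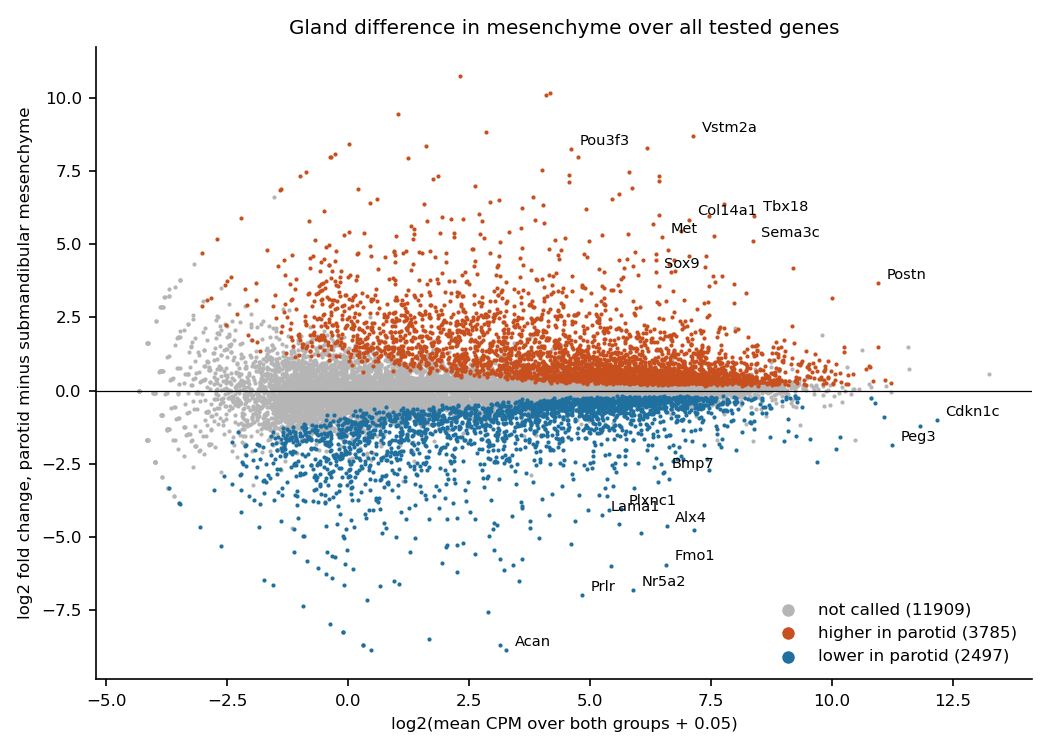
Each point is a gene tested in mesenchyme, with its mean level on the x axis (log2 of CPM plus 0.05) and its log2 fold change, parotid minus submandibular, on the y axis. Orange points were called higher (3785) and blue points lower (2497) in parotid, and genes of both kinds were found over the whole range of levels.

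The largest changes separated the glands almost completely. Pou3f3, a POU-domain transcription factor, was at 65.3, 38.7, 47.6 and 42.9 CPM in the parotid libraries and at 0.255, 0.0999, 0.155 and 0.109 CPM in the submandibular libraries. No submandibular library reached 1% of the lowest parotid level. The log2 fold change was 8.24 ± 0.45 (SE from the fit to all 16 libraries, n = 4 and 4 in the contrast, adjusted p = 1.7e-09). Its noncoding neighbour Pantr1 was at 62.8, 29.9, 35.1 and 16.8 CPM in parotid. In submandibular mesenchyme Pantr1 had 2 reads in all, both in replicate 2, a ratio of 1370 with a 95% counting interval of 379 to 11300. Pantr1 and Pou3f3 lie on chromosome 1 in opposite directions with 942 bases between them.

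The upstream sequence of Pou3f3 is shown with those of Meox2 and Nr5a2, because these genes had large changes among the transcription factors and their promoters are in the RefSeq table (GRCm38.p6). Each window holds the 250 bases before an annotated start, written 5′ to 3′ on the gene's strand, and none overlaps an annotated exon. Capitals mark CCAAT and TATAAA on either strand, so that ATTGG and TTTATA are matches on the other strand. The windows are chr1:42695518-42695767 (plus strand) for Pou3f3, chr12:37108290-37108539 (plus strand) for Meox2, and chr1:136960449-136960698 and chr1:136953631-136953880 (minus strand) for starts A and B of Nr5a2.
Pou3f3: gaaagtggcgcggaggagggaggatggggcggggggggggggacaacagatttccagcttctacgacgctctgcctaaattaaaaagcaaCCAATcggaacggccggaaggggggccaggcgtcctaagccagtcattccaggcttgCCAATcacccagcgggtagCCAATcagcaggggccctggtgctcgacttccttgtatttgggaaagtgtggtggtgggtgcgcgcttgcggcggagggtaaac
Meox2: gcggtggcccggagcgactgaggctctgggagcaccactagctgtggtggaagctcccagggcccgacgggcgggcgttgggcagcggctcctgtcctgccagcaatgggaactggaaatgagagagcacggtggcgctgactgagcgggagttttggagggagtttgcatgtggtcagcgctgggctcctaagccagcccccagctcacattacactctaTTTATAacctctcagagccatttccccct
Nr5a2, start A: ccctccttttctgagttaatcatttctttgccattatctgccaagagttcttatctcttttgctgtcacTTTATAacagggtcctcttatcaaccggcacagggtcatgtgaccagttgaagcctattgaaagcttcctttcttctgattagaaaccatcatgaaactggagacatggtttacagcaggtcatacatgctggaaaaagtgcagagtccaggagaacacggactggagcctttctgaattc
Nr5a2, start B: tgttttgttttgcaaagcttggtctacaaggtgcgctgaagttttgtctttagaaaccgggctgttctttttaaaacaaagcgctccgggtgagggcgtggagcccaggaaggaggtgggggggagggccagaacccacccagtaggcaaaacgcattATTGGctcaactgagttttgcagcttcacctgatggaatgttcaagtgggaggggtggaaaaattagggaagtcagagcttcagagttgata
The Pou3f3 window lies within the bases that part it from Pantr1 and holds 3 matches to CCAAT. Of 32851 windows of this length, 33.8% held CCAAT and 12.4% held TATAAA, so single matches such as those of Meox2 and Nr5a2 are common.

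Several other genes with the largest rises were near 0 in submandibular mesenchyme. Hrh1, a histamine receptor, was at 23, 33.1, 32 and 48.9 CPM in parotid and had 2 reads in all in submandibular mesenchyme, both in replicate 1 (ratio 1340, 95% counting interval 370 to 11000). Vstm2a, a secreted immunoglobulin-domain protein, was at 154, 340.4, 262 and 372 CPM against 1.17, 0.449, 0.774 and 0.327 CPM (log2 fold change 8.68 ± 0.41, adjusted p = 8.65e-10). The chemokine Cxcl14 was at 159, 144, 184 and 88.5 CPM against 0.153, 0.2, 0.413 and 1.09 CPM (8.29 ± 0.49, adjusted p = 9.04e-09; 9.11 without submandibular replicate 4). In all 3 the lowest parotid library was far above the highest submandibular one. Areg, an EGF receptor ligand, was at 6.6, 6.79, 11.9 and 32 CPM in parotid. It had 2 reads in all in submandibular mesenchyme (ratio 571, 95% counting interval 158 to 4720). Its log2 fold change was 8.83, and 8.08 without parotid replicate 4. The set of 12 also held Cdh8 (a cadherin), Bmp3, Rprm, Lin7a, Mgat4c and a gene without a symbol (ENSMUSG00000097348), with log2 fold changes of 7.14 to 7.97. Mgat4c was at 7.53, and at 8.48 without submandibular replicate 4.

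The largest falls had the opposite pattern. Nr5a2, a nuclear receptor, was at 0.805, 0.931, 0.908 and 1.49 CPM in parotid, against 118, 117, 110.0 and 124 CPM in submandibular libraries. The submandibular values lay within a narrow band, and the log2 fold change was -6.81 ± 0.33 (adjusted p = 5.3e-10). The prolactin receptor Prlr was at 0.215, 1.15, 0.158 and 0.327 CPM against 65.7, 72, 49.5 and 39.9 CPM (-6.99 ± 0.47, adjusted p = 1.69e-08; -7.91 without parotid replicate 2). Acan, the large proteoglycan of cartilage, was at 11.4, 21.9, 16.9 and 26.7 CPM in submandibular mesenchyme and had 3 reads in all in parotid (ratio 533, 95% counting interval 182 to 2590). The flavin monooxygenase Fmo1 averaged 187 ± 46 CPM (SD, n = 4) in submandibular and 3.07 ± 1.84 CPM in parotid mesenchyme. Also among the largest falls were Gpat3 (a glycerolipid synthesis enzyme), Olfm3, Tmc3, the adhesion gene Negr1, Exph5, Crybg1 and the potassium channel Kcnj12. Their log2 fold changes were -7.57 to -5.75. Without parotid replicate 2, Olfm3 was at -7.67 in place of -6.52 and Crybg1 at -6.84 in place of -5.77, and without parotid replicate 4 Gpat3 was at -8.59 in place of -7.57.

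**Figure D2:**
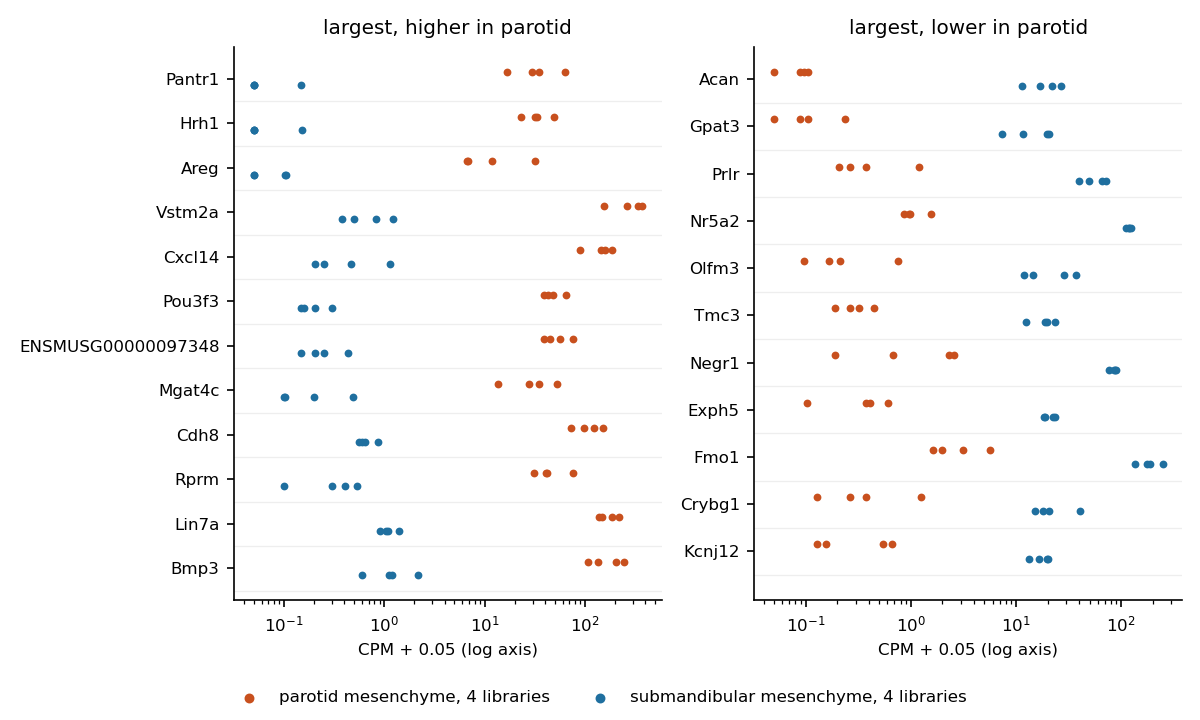
Points show the level of each library (CPM plus 0.05, log axis) for called genes with the largest rises (12 genes) and falls (11 genes) in parotid mesenchyme, orange for parotid and blue for submandibular. For every gene shown the 4 libraries of the glands form separate clusters, as the rule for this set required.

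Among genes called by at least 2-fold, the 5 with most counts in each direction included matrix genes and regulators of growth. Postn, a matrix protein that binds collagen, was at 2713, 4327, 2312 and 5446 CPM in parotid, against 273 to 298 CPM in submandibular libraries (log2 fold change 3.68 ± 0.44, adjusted p = 1.76e-05). The growth factor Ptn averaged 2953 ± 732 and 1058 ± 102 CPM, the ephrin receptor Epha3 1858 ± 418 and 209.7 ± 13.9 CPM, and the follistatin-like protein Fstl1 1793 ± 224 and 644 ± 15.3 CPM. Tuba1a, a tubulin, completed the set. In the other direction stood Cdkn1c, Peg3 and Plagl1, which are imprinted, with the membrane protein Itm2a and the kinase Nrk. Cdkn1c, an inhibitor of the cell cycle, was at 2596, 3474, 2842 and 3374 CPM in parotid, against 5972 to 6530 CPM in submandibular mesenchyme (-1.02 ± 0.12, adjusted p = 5.52e-06).

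Transcription factors that mark position in the face split between the glands. Of 36 craniofacial patterning factors tested, 10 were higher and 11 lower in parotid (median log2 fold change -0.15), against 20.8% and 13.7% of all genes. Counts for the lists that follow are to be read against the same shares. Dlx5 and Dlx6, homeobox genes of the lower jaw that lie 9830 bases apart on chromosome 6, were both higher in parotid. Dlx5 was at 162, 187, 188 and 238 CPM against 6.84, 7.69, 12.3 and 19.7 CPM (4.06 ± 0.33, adjusted p = 2.1e-07), and Dlx6 rose by 3.41 on the log2 scale, though its reads cannot be told apart from those of an antisense RNA at this locus. Lhx8 and Lhx6, LIM homeobox factors of oral mesenchyme, averaged 119.6 ± 13.6 and 69.3 ± 7.8 CPM in parotid, against 7.71 ± 4.68 and 9.03 ± 3.92 CPM in submandibular mesenchyme. Msx1 ranged from 8.4 to 51.3 CPM in parotid, against 3 to 4.19 CPM in submandibular mesenchyme (2.84 ± 0.56, adjusted p = 0.000981; 2.21 without parotid replicate 2).

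The factors higher in submandibular mesenchyme included Alx4 and Gsc. Alx4, an aristaless-like factor, was at 167, 179, 173 and 221 CPM against 9.93, 6.14, 9.91 and 3.73 CPM in parotid (-4.64 ± 0.42, adjusted p = 8.08e-07). Gsc averaged 2.32 ± 1.01 CPM in parotid, against 29.8 ± 16.3 CPM, and submandibular replicate 4 was the highest library, at 54.1 CPM. Barx1, a homeobox gene of oral and stomach mesenchyme, was at 447 to 512 CPM in submandibular and 169 to 242 CPM in parotid mesenchyme (-1.30 ± 0.26, adjusted p = 0.00128). Prrx1, Twist1, Dlx1 and Dlx2, general factors of facial mesenchyme, were not called, with log2 fold changes of -0.54, -0.14, -0.15 and -1.15.

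T-box factors also differed widely between the glands. Tbx18 was at 499, 539, 775 and 853 CPM in parotid, against 13.1, 7.84, 9.81 and 11.7 CPM in submandibular mesenchyme (5.97 ± 0.51, adjusted p = 7.57e-07). Its relative Tbx15 was at 86.3 to 122 CPM against 0.255 to 1.86 CPM (6.73 ± 0.42, adjusted p = 1.12e-08; 7.35 without submandibular replicate 3). Both sets of libraries were widely separated. Tbx5 averaged 2.14 CPM, against 0.0776 CPM (4.68, and 5.73 without submandibular replicate 1), whereas the palate factor Tbx22 averaged 5.56 ± 0.669 CPM in parotid, against 23.8 ± 9.79 CPM in submandibular mesenchyme (-2.10 ± 0.69, adjusted p = 0.0273; not called without any 1 parotid library or submandibular replicate 4). Of 19 forkhead and T-box factors tested, 5 were higher and 4 lower, against 20.8% and 13.7% of all genes. The lower ones included Foxc1 (not called without submandibular replicate 1), Foxc2 and Foxp2. With no filter on low counts 2 were lower, and of the 8 that passed a filter of 10 CPM in 4 libraries 2 were higher.

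Among 33 OSR, PAX, bHLH, SOX and nuclear receptor factors tested, 14 were higher and 9 lower in parotid. Meox2, a mesenchymal homeobox factor, was at 193, 176, 183 and 125 CPM in parotid, against 2.55, 3.05, 1.55 and 3.43 CPM in submandibular mesenchyme (6.00 ± 0.28, adjusted p = 5.26e-10). Its paralogue Meox1 had the opposite order, at 2.65 to 10.7 CPM against 22 to 28.6 CPM (-2.34 ± 0.39, adjusted p = 0.0002; -2.98 without parotid replicate 1). Sox9, which acts in cartilage, tendon and epithelial progenitors, was at 122, 179, 128 and 191 CPM against 8.05 to 10.7 CPM (4.04 ± 0.20, adjusted p = 8e-10). Osr2 averaged 434 ± 51.9 and 101 ± 11.9 CPM, and Shox2 averaged 153 ± 21.7 and 28.1 ± 4.32 CPM, without overlap. Pax1 was at 0.7 to 2.15 CPM in parotid and had no read in submandibular mesenchyme, at least 36.7-fold higher with that group set at 3 counts in all.

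HOX genes, which mark tissue behind the face, were mostly below the filter. Only 4 of 22 were tested, and 2 were called, both higher in parotid. Hoxd1 averaged 1.90 ± 0.843 CPM in parotid and had 3 reads in all in submandibular mesenchyme (ratio 49.9, 95% counting interval 16.8 to 245). Its fitted log2 fold change was 5.42, and 6.37 without submandibular replicate 1.

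**Figure D3:**
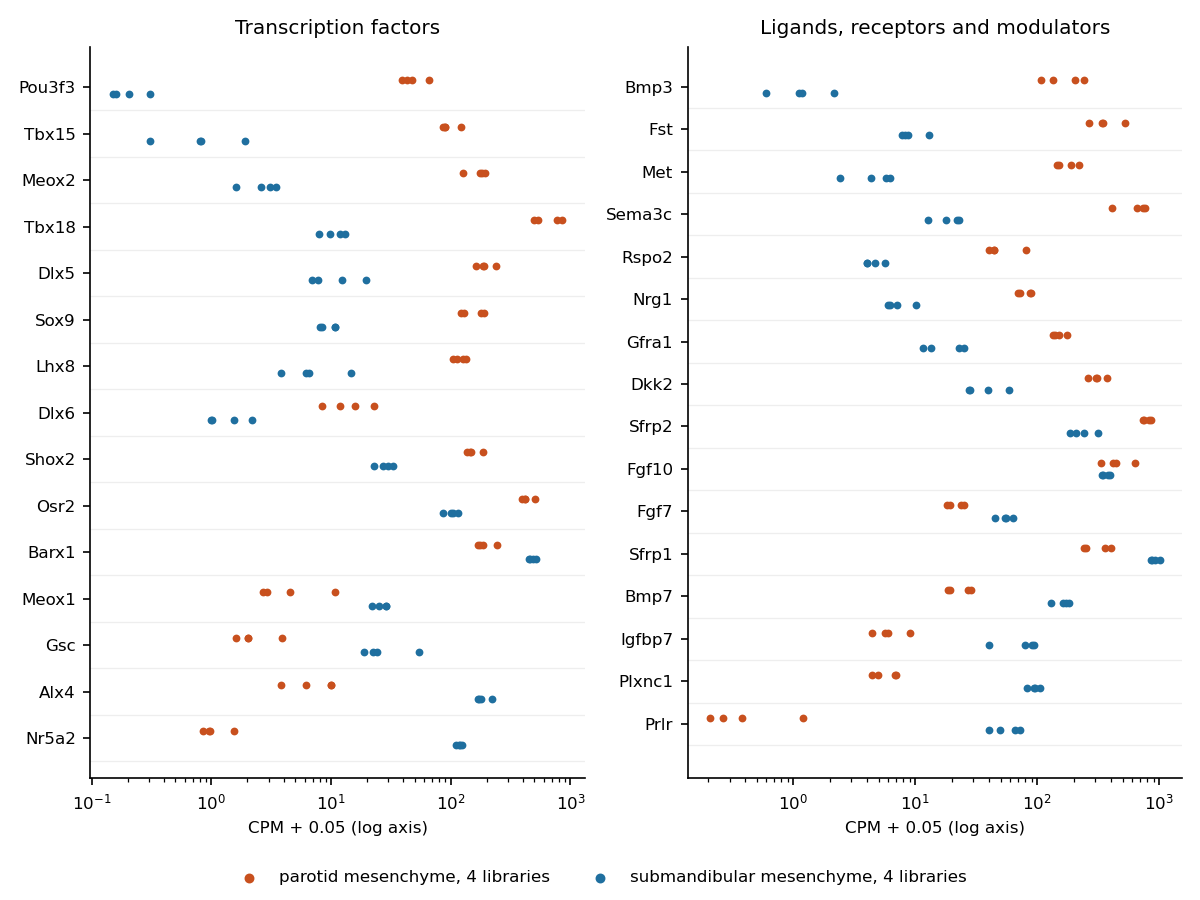
Each row shows the level of a gene in the 4 parotid (orange) and 4 submandibular (blue) mesenchyme libraries (CPM plus 0.05, log axis), with transcription factors on the left and secreted factors, receptors and their modulators on the right. Fgf10 is the gene in which the glands overlap; in the other genes shown the libraries of the glands are separate.

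Fgf10, the main FGF of salivary mesenchyme, did not differ detectably between the glands. It was at 330.1, 443, 419 and 631 CPM in parotid, against 378, 396, 345 and 342 CPM in submandibular libraries, which overlap (0.32 ± 0.36, adjusted p = 0.529). Fgf7, which acts on the same epithelial receptor, was lower in parotid at 18.2, 23.6, 19.3 and 25 CPM against 63.6, 55.9, 54 and 44.7 CPM (-1.34 ± 0.32, adjusted p = 0.0036). Fgf2 and the receptor Fgfr2 were also lower, with log2 fold changes of -1.84 and -1.34. Of 17 FGF ligands and receptors tested, 8 were higher and 3 lower in parotid (5 lower with upper-quartile scaling or library totals). Fgf18 averaged 23.5 ± 1.08 and 7.49 ± 4.14 CPM. The receptor Fgfr4 was at 36.2, 36.8, 25.1 and 9.38 CPM in parotid, against 3.97 to 6.19 CPM in submandibular mesenchyme. The 8 include Fgf12, Fgf13 and Fgf14, which stay inside the cell and are not receptor ligands. They rose by 2.01, 2.53 and 4.22 on the log2 scale.

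Genes that follow FGF and ERK signalling were mostly higher in parotid mesenchyme. Of 11 tested, 7 were higher and 2 lower, with a median log2 fold change of 0.66. Dusp6, a phosphatase induced by ERK, was at 254, 237, 206 and 210.0 CPM against 134, 106, 128 and 126 CPM (0.88 ± 0.11, adjusted p = 1.36e-05). Il17rd, Etv1 and Etv5 were higher as well, at log2 fold changes of 1.71, 1.43 and 0.87. Etv4, at -0.76, and Spred1, at -0.49, were lower, and Etv4 was not called without parotid replicate 2, 3 or 4 or submandibular replicate 4.

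WNT pathway genes were called higher in parotid more often than lower. Of 34 ligands, receptors and modulators tested, 18 were higher and 4 lower (6 lower with library totals), and the median log2 fold change was 1.40. Rspo2, an R-spondin that raises WNT signalling, was at 40.3, 44.1, 81.1 and 44.5 CPM in parotid, against 3.98, 3.94, 4.59 and 5.61 CPM in submandibular mesenchyme (3.53 ± 0.29, adjusted p = 1.03e-07). Dkk2, a secreted modulator of the WNT receptor complex, was at 302, 262, 375 and 307 CPM against 27.3, 28.1, 39.1 and 58.9 CPM (3.02 ± 0.58, adjusted p = 0.000999). The secreted WNT binding proteins of the SFRP family went both ways. Sfrp2 averaged 791 ± 57 CPM in parotid, against 237 ± 55.1 CPM in submandibular mesenchyme, whereas Sfrp1 averaged 313 ± 78.6 and 916 ± 66.5 CPM. Wnt5a was at 43.7 to 76.6 CPM in parotid, against 3.52, 5.19 and 4.34 CPM in submandibular replicates 1 to 3, with replicate 4 at 32.8 CPM. The log2 fold change of Wnt5a was 2.25 ± 0.59 (adjusted p = 0.00862), and 3.64 without submandibular replicate 4. Wnt5a was not called in most fits to only the 8 mesenchyme libraries with a library left out. Among 11 WNT response genes tested, Lef1 (2.06), Apcdd1 (2.00), Tnfrsf19, Nkd1 and Nkd2 (not called without parotid replicate 1 or 2 or submandibular replicate 1 or 3) were higher and none was lower, and 3 were higher in the 8-library fit with a replicate block. Axin2, a common WNT target, was not called (0.50 ± 0.22, adjusted p = 0.0975).

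BMP genes moved in both directions. Of 38 tested genes in the BMP and TGF-beta list, 13 were higher and 7 lower in parotid (median 0.25), against 20.8% and 13.7% of all genes. With only the 8 mesenchyme libraries 11 of 37 tested were higher and 10 lower. Bmp3, an atypical BMP that opposes other BMPs, was at 106, 203, 135 and 242 CPM against 1.07, 0.549, 1.14 and 2.12 CPM (7.14 ± 0.74, adjusted p = 4.64e-06). Fst, which binds activins and some BMPs, was at 267, 338, 343 and 523 CPM against 13, 8.59, 8.21 and 7.73 CPM (5.29 ± 0.39, adjusted p = 1.1e-07). Ligands of the Bmp5, Bmp6 and Bmp7 group were lower in parotid. Bmp7 was at 18.3, 28.5, 27.2 and 19.1 CPM against 171, 162, 184 and 129 CPM (-2.79 ± 0.18, adjusted p = 9.04e-09). Bmp6 averaged 3.06 ± 0.438 and 14.9 ± 0.811 CPM, and Bmp5 averaged 0.337 ± 0.362 and 1.96 ± 0.938 CPM (-2.57, and -3.62 without parotid replicate 2). Bmp4 was not called (-0.83 ± 0.41, adjusted p = 0.134), and the BMP targets Id3 and Id4 were higher in parotid (1.13 and 2.08) while Id1 and Id2 were not called.

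Genes of the EGF, neuregulin and ectodysplasin pathways were called in both directions. Of 17 tested, 9 were higher and 4 lower (median 1.26), and of the 9 that passed a filter of 10 CPM in 4 libraries 5 and 2. Nrg1, a ligand of the ERBB3 and ERBB4 receptors, was at 70.1, 72.7, 87 and 88.1 CPM against 5.87, 6.14, 10.1 and 7.08 CPM (3.44 ± 0.34, adjusted p = 1.07e-06). The receptor Egfr averaged 129.9 ± 29.1 and 30 ± 12 CPM, and the ligand Btc averaged 4.75 ± 0.97 and 0.092 ± 0.0802 CPM. Groups did not overlap for these genes. Areg, Ereg, Erbb2, Erbb3 and Erbb4 were also higher, with Ereg (2.70) not called without parotid replicate 4 (1.63) or submandibular replicate 3. Erbb3 overlapped between the glands, at 62.2, 50.2, 49.3 and 11.6 CPM in parotid, against 6.79 to 17.5 CPM. In the 8-library fit with a replicate block Erbb3 was not called. Without submandibular replicate 2, Ereg was at 3.42. The neuregulin Nrg2 was lower in parotid (-0.84). Eda, the ectodysplasin ligand, was higher in parotid (1.11 ± 0.24, adjusted p = 0.00151), whereas its receptors Edar and Eda2r and the adaptor Edaradd were lower, with log2 fold changes of -3.41, -4.13 and -0.91. Eda2r averaged 0.602 ± 0.383 CPM in parotid, against 10.9 ± 2.02 CPM in submandibular mesenchyme.

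The growth factor receptor Met, which binds HGF, was at 145, 151, 218 and 189.5 CPM in parotid, against 5.67, 2.35, 6.19 and 4.25 CPM in submandibular mesenchyme (5.25 ± 0.24, adjusted p = 2.72e-10). Its ligand Hgf was at 11.7 to 18.2 and 12.3 to 19.2 CPM, which overlap (0.08 ± 0.37, adjusted p = 0.899). Of 20 genes of the PDGF, IGF, KIT and HGF pathways tested, 6 were higher and 4 lower (6 lower with only the 8 mesenchyme libraries). The shares over all genes were 20.8% and 13.7%. Pdgfc averaged 69.3 ± 15.4 and 8.83 ± 2.3 CPM, and Pdgfd averaged 38.4 ± 5.17 and 77.6 ± 8.05 CPM. The IGF binding proteins Igfbp7, Igfbp2 and Igfbp5 were lower in parotid, with log2 fold changes of -3.61, -1.92 and -1.30, and Igfbp4 and Igfbp6 were higher. Igfbp4 was called without submandibular replicate 4 but not without any other library, and Igfbp6 was not called without submandibular replicate 4. The ligand Igf2 overlapped between the glands (0.14 ± 0.14, adjusted p = 0.498).

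Retinoic acid genes showed different enzymes and receptors in the glands. Of 17 tested, 4 were higher and 6 lower in parotid, against 20.8% and 13.7% of all genes, and the median log2 fold change was -0.26. With only the 8 mesenchyme libraries 5 of 16 tested were higher and 7 lower. Crabp1, which binds retinoic acid in the cell, was at 198, 123, 218 and 143 CPM against 16, 16.1, 17.7 and 31.4 CPM (3.07 ± 0.24, adjusted p = 9.85e-08). Rdh10, an enzyme of retinoic acid synthesis, averaged 75.4 ± 5.95 CPM in parotid, against 197 ± 35.5 CPM in submandibular mesenchyme. Rarb, a receptor gene that retinoic acid induces, averaged 114 ± 22.3 and 281 ± 36 CPM, and the breakdown enzymes Cyp26a1 and Cyp26b1 were lower in parotid (-2.31 and -1.16). The synthesis gene Aldh1a2 averaged 589.9 ± 141 and 284 ± 104 CPM and was not called with 16 libraries in the fit (adjusted p = 0.145), although its libraries did not overlap.

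In the hedgehog pathway 5 of 11 genes tested were higher and 1 was lower in parotid. Gli1, a hedgehog target, averaged 15.8 ± 3.57 and 3.93 ± 1.46 CPM (2.01 ± 0.73, adjusted p = 0.0447) and was not called when any single library was left out. The count of 5 was 2 with upper-quartile scaling or library totals, 2 without parotid replicate 1 or submandibular replicate 2 or 3, and 3 without parotid replicate 3 or 4 or submandibular replicate 1. This count was at most 4 with any library left out. Gli3, which mainly represses hedgehog targets, averaged 78.8 ± 9.18 and 157 ± 21 CPM (adjusted p = 9.28e-05). Of 16 Notch pathway genes tested, 7 were higher and none lower. The Notch ligand Jag1 was at 167, 245, 218 and 156 CPM against 32.9 to 43.8 CPM (2.38 ± 0.19, adjusted p = 9.06e-08).

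Imprinted growth genes were lower in parotid mesenchyme in 6 of 16 cases and higher in 4, against 13.7% and 20.8% of all genes. Peg3 was at 1032, 1103, 1106 and 980.2 CPM against 3607, 3855, 3952 and 3966 CPM (-1.87 ± 0.12, adjusted p = 8.96e-09). Zim1, a neighbour of Peg3 in the same imprinted cluster, had a log2 fold change of -2.61, and Plagl1, Cdkn1c, Mest and H19 were lower by smaller amounts. Ndn and Nnat were higher in parotid, with means of 1023 ± 209 against 399.8 ± 54.4 CPM and 482 ± 79.8 against 209.8 ± 19.8 CPM. Dlk1 and Igf2 were not called.

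Interstitial matrix genes were broadly higher in parotid mesenchyme. Of 35 tested, 17 were higher and 1 lower, with a median log2 fold change of 1.00. Col14a1, a collagen that associates with fibrils, was at 205, 237, 276 and 321 CPM against 3.88, 4.59, 4.65 and 5.06 CPM (5.84 ± 0.23, adjusted p = 5.88e-11). Thbs2, a thrombospondin, averaged 402 ± 81.6 and 26.5 ± 4.47 CPM. Thbs4, found in tendon, was at 160.3 CPM in parotid replicate 1 and 36.2 to 43 CPM in the other parotid libraries, against 5.06 to 7.04 CPM. Its log2 fold change was 3.56, and 2.75 without parotid replicate 1. The tendon factors Scx and Mkx were likewise highest in parotid replicate 1, at 65 and 49.1 CPM against 9.92 to 11.7 and 5.23 to 5.73 CPM in the other parotid libraries. Without that library the log2 fold changes of Scx and Mkx were 1.75 and 1.76, against 2.93 and 3.36 with it, and both were still called.

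The major fibrillar collagens were not called with all 16 libraries in the fit. Col1a1 was at 4152, 5354, 3882 and 4644 CPM in parotid, against 1430 to 1758 CPM in submandibular mesenchyme, without overlap (1.49 ± 0.82, adjusted p = 0.185). With only the 8 mesenchyme libraries the same gene had an adjusted p of 5.13e-06. Lum and Dcn, small proteoglycans of collagen fibrils, had the same pattern, with adjusted p of 0.0983 and 0.158 with 16 libraries and 1.06e-05 and 0.000465 with 8. In the 8-library fit 24 of 34 matrix genes tested were higher and 3 lower, and of the 20 mesenchyme markers 12 were higher and 3 lower, against 6 and 1 with 16 libraries. Fn1 overlapped between the glands (0.04 ± 0.16, adjusted p = 0.87). Tnc, at 62.9 to 121 CPM against 259 to 325 CPM, was not called with 16 libraries (adjusted p = 0.058), although its libraries did not overlap.

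Basement membrane chains differed by isoform. Of 22 tested, 8 were higher (5 with no filter on low counts) and 5 lower in parotid. Lama1, the laminin alpha chain of early epithelial basement membranes, was at 6.01, 2.85, 5.02 and 1.31 CPM against 64.6, 66.8, 69 and 90.5 CPM (-4.26 ± 0.39, adjusted p = 7.03e-07). Lamb1 averaged 366 ± 51.2 and 1143 ± 129.9 CPM. The type IV collagen genes Col4a5 and Col4a6, which share a locus on the X chromosome, were lower in parotid by -2.24 and -3.47 (Col4a6 by -4.18 without parotid replicate 1), whereas Col4a1 and Col4a2 were higher by 0.79 and 0.90, with Col4a1 not called without parotid replicate 2 or submandibular replicate 1. Lama4, found around vessels and mesenchymal cells, averaged 469.8 ± 77.1 and 191 ± 16.9 CPM. Among 24 matrix proteases and inhibitors tested, 7 were higher and 6 lower (4 lower without parotid replicate 1 or 4). Mmp9 averaged 3.73 ± 1.66 and 17.2 ± 2.11 CPM, and Mmp14 averaged 669 ± 163 and 280.3 ± 24.9 CPM.

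Axon guidance and adhesion genes were called higher in parotid more often than lower. Of 34 guidance genes tested, 19 were higher and 3 lower in parotid (median 0.79). Lower calls numbered 5 with upper-quartile scaling and 7 with library totals. Sema3c, a secreted semaphorin, was at 413, 659, 732 and 769 CPM against 22.8, 17.8, 21.9 and 12.6 CPM (5.10 ± 0.34, adjusted p = 4.09e-08), and its receptor component Nrp1 averaged 357 ± 47.5 and 93.6 ± 23.4 CPM. The netrin Ntn1 averaged 46.6 ± 19.3 and 3.11 ± 1.15 CPM. Lower in parotid were the plexin Plxnc1, at 4.39 to 6.92 CPM against 83.1 to 104 CPM (-4.04 ± 0.25, adjusted p = 7.01e-09), the netrin receptor Unc5c (-3.55) and the ephrin Efnb2 (-1.59). Of 26 adhesion genes tested, 13 were higher and 2 lower (4 lower with only the 8 mesenchyme libraries, 5 with library totals). Cdh8 was at 72.9, 97.1, 123 and 152 CPM against 0.51, 0.549, 0.826 and 0.599 CPM (7.47 ± 0.28, adjusted p = 4.48e-11). The protocadherin Pcdh19 averaged 158 ± 27 and 6.26 ± 0.744 CPM, and Negr1 was the main exception at 0.14 to 2.52 CPM in parotid against 76.6 to 90.2 CPM.

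Chemokines and other secreted signals to vessels and leukocytes were split. Of 21 tested, 7 were higher and 4 lower. Leaving out a library gave 5 to 6 higher and 4 to 6 lower, with 6 lower without parotid replicate 3. Besides Cxcl14, the rises included Vegfd (2.37, and 2.98 without submandibular replicate 2) and the angiopoietin Angpt1 (1.72 ± 0.58, adjusted p = 0.0312), which was not called without a single library among replicates 1 to 3 of either gland and was at 2.54 without submandibular replicate 4. Cxcl13, which attracts B lymphocytes, averaged 14.1 ± 3.12 and 65.1 ± 21.7 CPM, and Ccl21a was at 0.14 to 1.15 against 7.2 to 11.4 CPM (-4.35, and -5.35 without parotid replicate 2). Cxcl12, a general mesenchymal chemokine, was not called (0.33 ± 0.40, adjusted p = 0.573).

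Neuronal markers were called in both directions. Of 17 neuronal markers tested, 7 were higher and 6 lower in parotid, and the summed level was 1517 to 2545 CPM against 147 to 370.5 CPM. Most of the parotid sum was Nefl, so the sums do not measure the amount of neural tissue. Markers that averaged at least 1 CPM numbered 11 in parotid and 16 in submandibular mesenchyme, out of 18. Nefl, a neurofilament subunit, was at 892, 791, 1346 and 1422 CPM against 63.7, 59.9, 61.1 and 60.9 CPM (4.18 ± 0.53, adjusted p = 3.42e-05). Stmn2 averaged 325 ± 119 and 13.3 ± 9.12 CPM, and the acetylcholine-synthesis gene Chat was at 4.56, 4.55, 5.37 and 8.54 CPM against 0 to 0.155 CPM (6.36 ± 0.58, adjusted p = 3.59e-07; 7.17 without submandibular replicate 3). The vesicle transporter Slc18a3 of the same pathway averaged 12.9 ± 5.23 and 0.311 ± 0.193 CPM.

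Other neural genes had the reverse order. Submandibular replicate 3 was the highest library for Elavl4 (43 CPM against 4.14 to 10.7), Ret (19.4 against 2.5 to 7.51) and Dbh (6.92 against 0.499 to 2.78). Without that library the log2 fold change of Elavl4 was -1.32 in place of -2.39, and Ret and Dbh were not called, as was also so without parotid replicate 3 and, for Ret, parotid replicate 4. Th, Dbh, Elavl4, Hand2 and Nefh were among the markers lower in parotid. Th was at -6.06, at -7.71 without parotid replicate 1 and at -4.96 without submandibular replicate 3, and Dbh was at -3.68, and at -4.82 without parotid replicate 2. Elavl4 averaged 16.8 CPM and the other 4 at most 11.6 CPM in submandibular mesenchyme, and no neuronal marker called lower passed a filter of 10 CPM in 4 libraries. Of 12 Schwann cell lineage markers tested, 1 was higher, the neuregulin receptor Erbb3, and 1 was lower. The libraries of the glands overlapped for all 12, with Sox10 at 0.513 to 9.64 and 1.33 to 13.4 CPM. Among 13 neurotrophic factors and receptors tested, 4 were higher and 4 lower. Leaving out a library gave 2 to 3 lower, with 2 without parotid replicate 3, parotid replicate 4 or submandibular replicate 3. Gfra1, a receptor of the GDNF family, averaged 149 ± 18.4 and 18.2 ± 6.72 CPM, whereas Gdnf averaged 0.144 ± 0.135 and 1.87 ± 0.487 CPM (-3.73, and -4.49 without parotid replicate 2).

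Skeletal muscle genes were higher in parotid mesenchyme in 17 of 19 tested members, with a median log2 fold change of 2.57. Myog, a muscle transcription factor, was at 213, 295, 224 and 74.3 CPM in parotid, against 29.4, 47, 71.1 and 31.2 CPM in submandibular libraries (2.17 ± 0.61, adjusted p = 0.0135). Myod1 was at 70.9, 74.7, 73.2 and 24.1 CPM against 5.36 to 16.5 CPM. Myh3, the embryonic myosin, was at 193, 194, 199 and 27.8 CPM against 13.3 to 31.9 CPM and overlapped through parotid replicate 4. The summed level of the list was 528.4 CPM in that replicate, against up to 2218 CPM in the other parotid libraries and 236.8 to 481.1 CPM in submandibular mesenchyme. The part of muscle beside the gland in the other results was not tested.

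Of 12 smooth muscle and pericyte markers tested, 8 were higher and none lower, with sums of 542.3 to 676.1 CPM against 203.8 to 236.2 CPM. Acta2, smooth muscle actin, was at 285, 218, 256 and 75.1 CPM against 35.2 to 51.6 CPM (2.38 ± 0.44, adjusted p = 0.000693). The pericyte channel subunit Abcc9 averaged 114 ± 36.6 and 29.1 ± 2.9 CPM and was highest in parotid replicate 4, at 157 CPM. Acta2, like the skeletal muscle sum, was lowest in that replicate among the parotid libraries. The part of skeletal muscle in the Acta2 values was not tested. No endothelial marker was called by edgeR or DESeq2 among 17 tested, 2 had an unadjusted p under 0.05 in edgeR, and their sums overlapped at 775.4 to 1190 and 829.1 to 1186 CPM. Pecam1 had a log2 fold change of -0.46 (adjusted p = 0.0732 with 16 libraries and 0.00438 with 8), and 2 endothelial markers were lower with limma-voom, upper-quartile scaling or library totals, 3 in the 8-library fit, and 5 in that fit without parotid replicate 2. Of 13 macrophage and leukocyte markers 3 were higher, against 20.8% of all genes (6 in the 8-library fit and 9 in that fit without parotid replicate 3). Lyve1 was at 5.42 to 13.9 CPM against 0.103 to 2.72 CPM (3.23, and 4.48 without submandibular replicate 4) and Mrc1 at 13.3 to 23.2 against 5.42 to 13.2 CPM. Csf1r overlapped between the glands.

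Of 11 erythroid markers tested, 1 was called, the embryonic globin Hbb-bh1, which was lower in parotid. It was at 5.09 to 13 CPM in parotid, against 41.2 to 61.1 CPM in submandibular mesenchyme (-2.54 ± 0.63, adjusted p = 0.00553). Hbb-y, at 554 to 774 against 2035 to 2513 CPM, was not called with 16 libraries (adjusted p = 0.222) and was called with 8 (1.71e-06). In the 8-library fit 4 erythroid markers were lower, and 6 in that fit without parotid replicate 4.

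**Figure D4:**
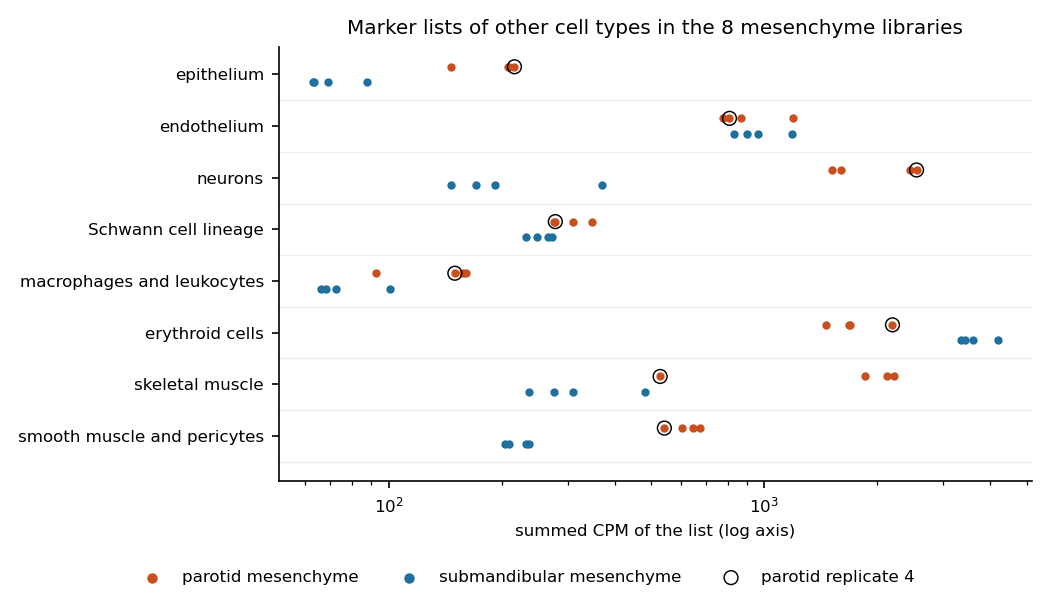
Points are the summed CPM (log axis) of marker lists of cell types other than mesenchyme in each parotid (orange) and submandibular (blue) mesenchyme library, with parotid replicate 4 circled. Skeletal muscle sums ran up to 2218 CPM in parotid but were 528.4 CPM in replicate 4, endothelial sums overlapped, and erythroid sums were 1457 to 2196 CPM in parotid, against 3335 to 4187 CPM.

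Cartilage and bone markers were not shared evenly. Of 11 cartilage markers tested, 3 were higher and 5 lower in parotid. Col2a1 averaged 44.2 ± 20.4 and 13.4 ± 9.99 CPM (1.72, and 2.36 without submandibular replicate 4), whereas Acan, Cnmd, Col9a1, Hapln1 and Col9a2 were lower. Col9a1 (-1.90) was not called without parotid replicate 4, or without submandibular replicate 4 (-0.91), and Hapln1 was not called without replicate 1 or 2 of either gland. Of 9 bone markers tested, 4 were higher (2 without parotid replicate 1 or submandibular replicate 1) and 2 were lower. Phex, an endopeptidase-like protein of bone, was at 1.18, 2.36, 1.7 and 1.82 CPM against 39.7, 35.5, 36.9 and 22.4 CPM (-4.25 ± 0.46, adjusted p = 2.62e-06), while the bone factors Runx2 (0.14) and Sp7 (1.20) were not called. Among 7 adipocyte lineage genes tested, Zfp423 was higher (0.78) and Lpl (-1.86) and Cebpa (-0.83) were lower.

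Of 20 proliferation genes tested, E2f1 was the 1 called with TMM scaling (0.43 ± 0.12, adjusted p = 0.012). It was not called with upper-quartile scaling, library totals or the 8-library fit (adjusted p = 0.05005, 0.123 and 0.0512), nor in that fit with a replicate block, and the 8-library fit called none of the 20. With 16 libraries 7 were higher without parotid replicate 4 and 5 without submandibular replicate 4. Mki67 overlapped at 70.6 to 122 and 80.2 to 111 CPM. Of 16 hypoxia and glycolysis genes 9 were higher and none lower (median 0.52). Ldha, which makes lactate, was at 810.4 to 1060.1 CPM in parotid, against 239.6 to 349.6 CPM in submandibular mesenchyme (1.62 ± 0.13, adjusted p = 1.03e-07), and the glycolytic enzyme Eno1 averaged 659.9 ± 76.6 and 269.7 ± 44.7 CPM. Among 14 immediate early and heat shock genes, Hspa1a was higher and Ier3 lower. Hspa1a lost its call without parotid replicate 2 or submandibular replicate 1, 2 or 3, and Ier3 without any 1 parotid library or submandibular replicate 1, while 4 genes were lower in the 8-library fit. Of 10 mitochondrially encoded genes 1 was lower with TMM scaling, 6 with upper-quartile scaling or in the 8-library fit and 8 with library totals. Leaving out a library gave 5 without parotid replicate 1, 3 without submandibular replicate 2, and 0 without parotid replicate 2 or submandibular replicate 1, 3 or 4.

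**Figure D5:**
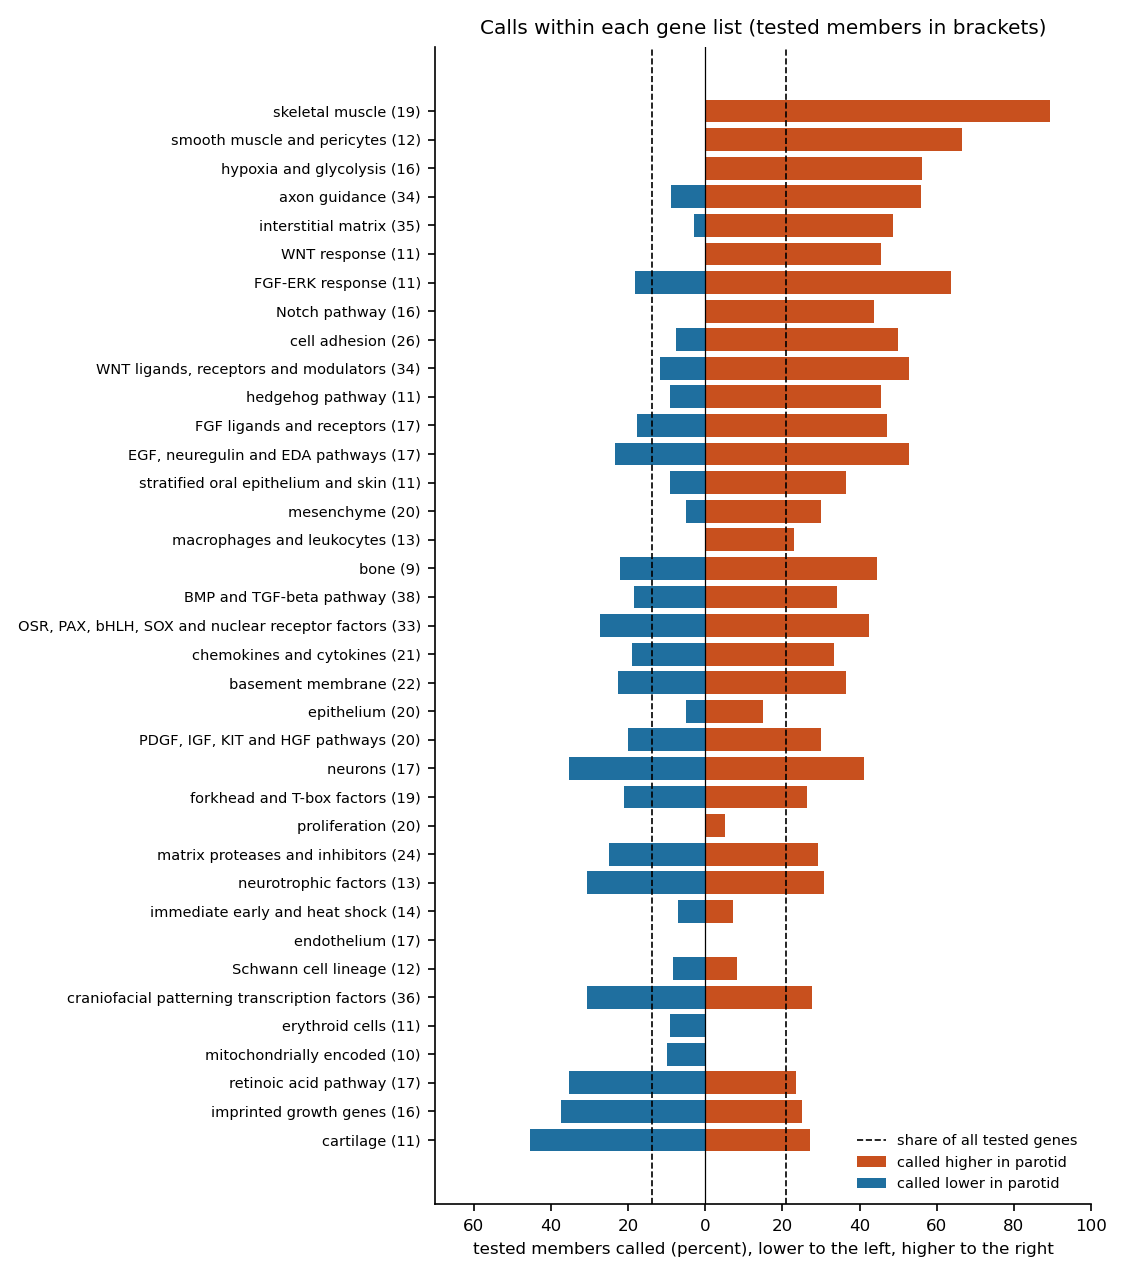
Bars give the share of tested members (number in brackets) of each list with at least 9 tested members that was called higher (right, orange) or lower (left, blue) in parotid mesenchyme, and dashed lines mark the shares over all tested genes, 20.8% and 13.7%. Skeletal muscle had 17 of 19 members higher and endothelium had none called.

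The same contrast in the epithelium of the glands called 3801 of 18191 genes (20.9%). Genes called in both layers numbered 1703, of which 1221 (71.7%) had the same direction. The gland difference itself differed between the layers for 3799 genes (20.9%), and 2727 of these were among the 6282 called in mesenchyme. The genes named next were chosen with their difference in mesenchyme known, so their values are descriptions. Col14a1 was in the epithelium of the glands at 199 ± 32.7 and 235 ± 69.3 CPM, and the log2 difference in mesenchyme exceeded that in epithelium by 6.08. Bmp7 likewise averaged 206 ± 35.1 and 167 ± 28.6 CPM in epithelium (difference between layers -3.09).

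Some genes had opposite gland differences in the layers. Areg was lower in parotid epithelium, at 0.106 ± 0.106 against 2.11 ± 0.523 CPM, and higher in parotid mesenchyme. In epithelium Rdh10 averaged 107 ± 23.4 and 16.7 ± 5.03 CPM, the reverse of mesenchyme (difference between layers -4.06). Edn3, an endothelin, had the same reversal, with a log2 fold change of 2.87 in epithelium and -1.21 in mesenchyme. Dlx5 had log2 fold changes of 4.06 in mesenchyme and 3.52 in epithelium, where it averaged 2.14 ± 0.64 and 0.167 ± 0.17 CPM, and Plagl1 fell by 1.59 and 1.64 on that scale. The mesenchyme markers summed to 495.7 CPM in the epithelium of the parotid and 264 CPM in that of the submandibular gland, against 32830 and 17920 CPM in mesenchyme, and the part of remaining mesenchyme in these epithelial values was not tested. For these 2 genes the difference between layers was not called (adjusted p = 0.716 and 0.928), which does not show that the layers are alike.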

How the data were processed

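The authors deposited whole-number counts per gene for each library, with no normalization, and these raw counts were the only values used. Per the labels' protocols, total RNA was made into full-length cDNA with the SMART-Seq v4 kit and into libraries with Nextera XT, which do not record strand, so reads of overlapping or antisense genes cannot be told apart. STAR 2.5.2a, edgeR and the GRCm38 (mm10) build are named by the submitters' processing notes. The read counter and its gene models were not given in the sources used here. In all 48709 genes were read, and 92 spike-in features (0.00115 to 0.00651% of counts) were left out. Symbols for 48349 genes came from a GENCODE table.

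A single model over all 16 libraries, with a coefficient for each of the 4 groups, used edgeR 4.0.16 and R 4.3.3 (TMM, filterByExpr, robust quasi-likelihood test), with Benjamini-Hochberg adjusted p-values over the 18191 genes that passed the filter, which held at least 99.88% of counts. The script was tested on simulated data. CPM uses the TMM-scaled library sizes, and ± is the SD over 4 libraries for a mean. For a log2 fold change ± is the SE, derived from the test statistic of the 16-library fit, so it includes the spread in epithelium. Fitted changes include a prior count. For groups with 1 to 3 reads in all, ratios are given with exact 95% intervals, which cover counting error only, and a group with no read was set at 3 counts. Counts of replicates differed by more than sampling noise (chi-square per gene 10 to 42.8).

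Named genes were, in each direction, the 12 called genes with the largest changes among those that averaged 10 CPM or more in 1 group and had no overlap, the 5 with most CPM among those called by at least 2-fold, and up to 4 called members of each of 41 gene lists with the largest changes. Members not called, or called with smaller changes, were named to show a list's range. The comparison, lists and rule were chosen with earlier results of these data known. Alternatives were other scalings, filters, DESeq2 1.42.0, limma-voom (limma 3.58.1), a replicate block, fits to only the 8 libraries, and leaving out each library. Leaving out a library of the 8-library fit was added after seeing the data. Promoters are from RefSeq. Some genes that the rule would name are not reported here, though counts over lists include them.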

Additional observations from a re-analysis of the deposited data

Results flagged for a closer look

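In 19 of 23 genes with the largest changes, the difference between the gland differences of the layers had an adjusted p under 0.05 (edgeR), against 20.9% of all genes tested. These genes were chosen for a large gland difference in mesenchyme, so the count and the values are a description and support nothing. Values are the log2 difference in mesenchyme minus that in epithelium. Among the rises they were 13.1 for Areg, 8.33 for Hrh1, 8.20 for Lin7a, 8.18 for Bmp3, 7.68 for ENSMUSG00000097348, 7.54 for Pantr1, 7.02 for Rprm, 6.75 for Mgat4c, 6.54 for Cdh8, 6.28 for Cxcl14 and 4.59 for Pou3f3. Among the falls they were -8.89 for Kcnj12, -8.80 for Prlr, -8.73 for Acan, -6.81 for Gpat3, -6.68 for Fmo1, -6.30 for Tmc3, -6.15 for Crybg1 and -2.60 for Exph5. Many had few reads in epithelium: parotid and submandibular means there were 0.28 and 0.0768 CPM for Hrh1, 0.483 and 0.0928 CPM for Pantr1, and 0.123 and 0.0727 CPM for Mgat4c. They were 0.0588 and 0.0457 CPM for Tmc3, 0.577 and 0.0449 CPM for Pou3f3, and 0.49 and 0.0546 CPM for Kcnj12. Areg averaged 0.106 CPM in parotid epithelium.

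A few libraries stood apart from the other 3 of their group. Prlr was at 1.15 CPM in parotid replicate 2 and 0.158 to 0.327 CPM in the others. Itm2a was at 4180 CPM in submandibular replicate 4 and 5350 to 5520 CPM in the others. In parotid replicate 3 the epithelial list summed to 147 CPM (others 208 to 216) and the macrophage and leukocyte list to 92.5 CPM (others 150 to 161). The hedgehog list summed to 1070 CPM in submandibular replicate 4 (others 920 to 944) and the Notch list to 786 CPM in parotid replicate 2 (others 640 to 665). The sex chromosome list summed to 454 CPM in submandibular replicate 2, where Ddx3y was at 184 CPM and Xist at 0.15 CPM, against 160 to 190 CPM in the others. These 7 came from 62 groups of gene values and 82 groups of list sums, and chance marks about 1 in 20 groups.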

How the results depend on the processing

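The 6282 calls became 4548 to 6790 under the other scalings, filters and tools and 5325 to 5970 when a library was left out, and the calls on the gland by layer difference became 3018 to 4427 and 3152 to 3677. Calls of at least 2-fold, 2800, ranged from 2620 to 2904 without a library and fell to 1273 with a filter of 10 CPM in 4 libraries, which tested 11199 genes. With only the 8 mesenchyme libraries, leaving out a library gave 5684 to 6614 calls. Fbln5 (0.23) and Foxf2 (0.69) were not called and reversed in the 8-library fit: Fbln5 was at -0.47 without parotid replicate 1 (adjusted p = 0.00952) and Foxf2 at -2.38 without parotid replicate 4 (adjusted p = 0.0259). The cause was not tested. Same-numbered libraries of the glands did not deviate together (r = -0.01, -0.01, -0.04 and 0.03). With 4 libraries a group, these values cannot show whether equal numbers share a litter or preparation, and the labels do not say. With a replicate block 6343 genes were called with 16 libraries and 6015 with 8, of which 2733 and 2548 by at least 2-fold, and 3871 for the difference between layers. Genes with few reads have folds set by counting error, and at 4 libraries a group a small difference may go uncalled.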

Other observations

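Families of genes, such as receptors of neurotransmitters, were also described. Some of their members, such as Cdh8 and Cyp26a1, are in the lists above as well. They were chosen after their values were seen, so their counts are descriptions with no test, to be read against 20.8% of all genes called higher and 13.7% called lower. Of 21 glutamate receptor genes tested, 13 were called higher and 2 lower in parotid mesenchyme, and the median log2 fold change was 1.23. Gria2, an AMPA receptor subunit, averaged 349.7 CPM in parotid, against 5.58 CPM in submandibular mesenchyme, and Grin3a averaged 230.6 and 5.31 CPM. Grik4, a kainate receptor subunit, had the opposite order at 8.07 and 43.5 CPM. Of 13 GABA-A receptor subunits, 6 were higher and 1 lower (median 1.34). Of 35 neuropeptide and amine receptors, 14 were higher and 9 lower: the neuropeptide Y receptors Npy1r (47.4 against 0.335 CPM) and Npy2r (61.8 against 1.77 CPM) were higher in parotid, and Hrh2 (0.26 against 12 CPM), Adra2a (13 against 75.2 CPM) and Prokr1 (27.8 against 138 CPM) were lower. The histamine receptors Hrh1 and Hrh2 thus had opposite orders.

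Of 20 cadherins tested, 9 were higher and 2 lower in parotid (median 1.01). Besides Cdh8, Cdh10 averaged 203.2 and 9.35 CPM and Cdh9 averaged 32.2 and 0.388 CPM. Beta protocadherins, 21 genes of a cluster of near-identical copies between which reads can be split, were higher in 9 cases and lower in none, by smaller amounts (median 0.67). Of 27 cytochrome P450 genes, 1 was higher and 8 were lower in parotid (median -0.50). Cyp2s1 averaged 3.47 CPM in parotid, against 58.95 CPM in submandibular mesenchyme, and Cyp7b1, which acts on oxysterols, averaged 21.2 and 47.2 CPM.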
